A study of Homo sapiens with 6 samples.

Results

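The 10 genes described here are the core of the TGF-beta pathway: the ligand genes TGFB1, TGFB2 and TGFB3, the receptor genes TGFBR1, TGFBR2 and TGFBR3, and SMAD2, SMAD3, SMAD4 and SMAD7, which encode the proteins that carry or stop the signal. They were taken by name, though with earlier results of these data known. Each of the 10 had a row among the 22718 genes of the deposited tables. RNA was sequenced from 6 libraries labelled HT1197, an established human bladder carcinoma line that the labels name as the cells of both arms. Cells of the vehicle arm spent 48 hours in 1% DMSO (3 libraries, A to C). Cells of the panobinostat arm spent 48 hours in the histone deacetylase inhibitor panobinostat at a dose of 2 times its IC50 (3 libraries, A to C). The labels give no DMSO content for the panobinostat arm. Dishes were seeded in parallel, per the labels, which do not say that each library had a dish of its own. Every p-value therefore rests on library-to-library spread that may be technical only.

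Libraries held 13417898 to 18186087 counts. In CPM (counts scaled to a common library total) a floor of 3 counts equals 0.165 to 0.224. The floor uses the raw totals, as FPKM does. Other CPM values given here use totals rescaled by TMM, a method that evens out differences in library make-up. The lowest count of any of the 10 genes in any library was 7, so each stood above that floor throughout. Spearman's rho across genes was 0.993 to 0.997 for libraries of the same arm and 0.941 to 0.95 for libraries of different arms. The labelled cell type was checked against marker genes. Of 20 urothelial markers 11 had a row, and GATA3, which neuroblasts also express, was the only one of these at 10 FPKM or more with vehicle (FPKM divides a count by the gene's length and the library's total). FOXA1, TP63 and UPK1B had 0 counts in the vehicle arm. Of 14 adrenergic neuroblast markers 12 stood at 10 FPKM or more, so the cells are called here the libraries labelled HT1197.

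TGF-beta ligands are secreted in a latent form, held in the matrix by LTBP proteins, and released by integrins and proteases. The free ligand binds the type II receptor TGFBR2, which recruits and phosphorylates the type I receptor TGFBR1. TGFBR3 (betaglycan) presents ligand to the pair, TGF-beta 2 above all. TGFBR1 phosphorylates SMAD2 and SMAD3, which join SMAD4 and enter the nucleus, and SMAD7, itself a target gene of the pathway, blocks the receptor. In epithelia the pathway is known for growth arrest and, in carcinoma, for matrix production and invasion.

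With panobinostat, transcripts of 6 of the 10 genes rose: TGFB1, TGFB2, TGFBR2, TGFBR3, SMAD3 and SMAD7. TGFBR1 and SMAD4 fell, and TGFB3 and SMAD2 did not pass the test. The test was edgeR's quasi-likelihood test over 16084 genes, and a change was called where p, adjusted by Benjamini and Hochberg's method, was at most 0.05. In the same comparison 33.7% of all genes tested rose and 31.5% fell. Rises made up 51.7% of these calls, against 63.2% with upper quartile scaling and 61% with library size alone. A rise of at least 2-fold was seen for 5 of the 10 genes and for 16.8% of all genes tested. The median log2 fold change was 0.96 over the 10 genes and 0.01 over all genes. TGFBR2 was kept by the filter on low counts only through the panobinostat arm, so it could hardly have fallen, and the counts above are a description. A bulk library gives an average, so more cells with a transcript and more transcript per cell cannot be told apart.

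Level matters for that reading, since rises were more frequent among the low genes of those tested. The filter enters these shares too. It kept 1754 of the 16084 genes only through the panobinostat arm and 277 only through the vehicle arm. Such genes could hardly have moved the other way, and their part in the shares was not tested. Bands were set by the mean CPM over all 6 libraries, so the change with panobinostat itself entered them and they are not starting levels. With vehicle alone TGFBR2 stood at 0.589 CPM and TGFBR3 at 6.09 CPM. Between 1 and 10 CPM, where TGFB1, TGFB3, TGFBR2 and SMAD3 lay, 43.9% of genes rose and 16.7% fell. Between 10 and 100 CPM, where TGFB2, TGFBR3, SMAD4 and SMAD7 lay, 28.5% rose and 40.5% fell. At 100 CPM or more, where TGFBR1 and SMAD2 lay, 22.7% rose and 48.1% fell. The 3 largest rises of the 10 (TGFBR2, TGFB1 and SMAD3) were all in the lowest of these bands. The part of level in them was not tested.

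**Figure D1:**
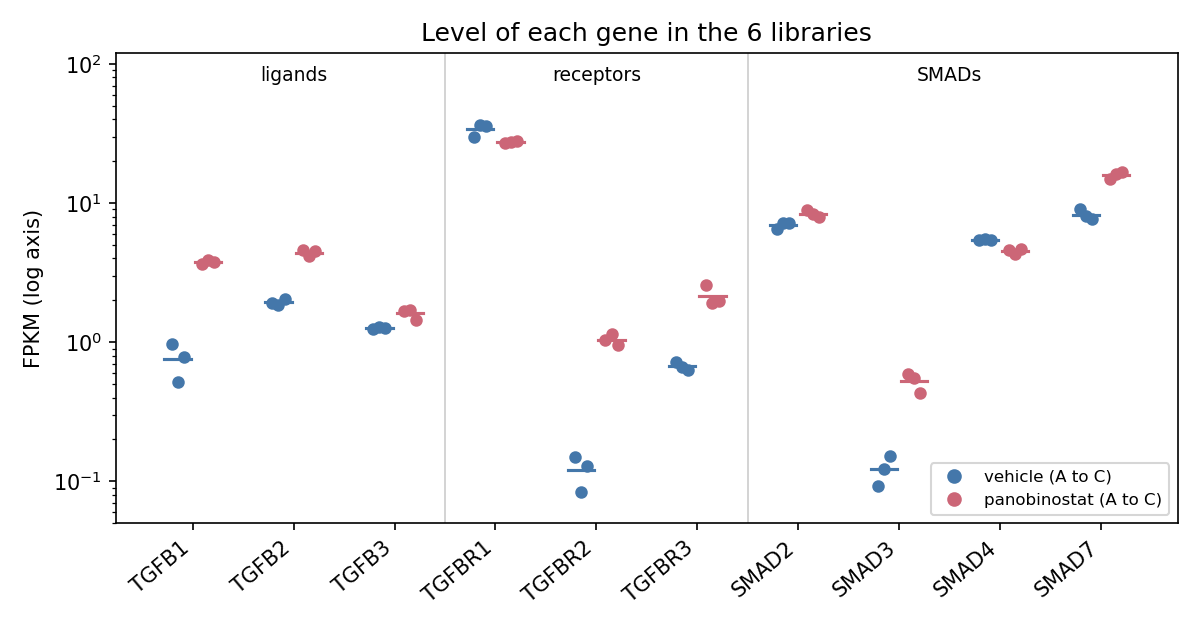
FPKM (log axis) of the 10 genes in each of the 6 libraries, with a bar at the mean of each arm (n = 3). TGFBR2 and SMAD3 sat lowest with vehicle, at means of 0.12 and 0.122 FPKM, while TGFBR1 sat highest in both arms.

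The start regions of TGFB1, TGFB2 and TGFBR2 are shown because these genes, both rising ligands and the receptor that binds them, moved together. All sequences are from RefSeq (GRCh38.p14), and a window from that table was found for each of the 10 genes. Capitals mark matches on either strand to 4 motifs: CCAAT is the box bound by NF-Y. GGGCGG is the GC box bound by SP1. CAGAC is the core of a SMAD-binding element. TATAAA is the TATA box. The 250 bases before the start of TGFB1 (chr19:41353923-41354172, minus strand) and of TGFB2 (chr1:218345086-218345335, plus strand) read as follows.
TGFB1: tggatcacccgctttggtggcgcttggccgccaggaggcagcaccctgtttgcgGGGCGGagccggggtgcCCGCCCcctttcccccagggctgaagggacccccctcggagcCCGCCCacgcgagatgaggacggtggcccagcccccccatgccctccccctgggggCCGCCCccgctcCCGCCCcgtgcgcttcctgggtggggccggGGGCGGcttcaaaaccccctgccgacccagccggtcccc
TGFB2: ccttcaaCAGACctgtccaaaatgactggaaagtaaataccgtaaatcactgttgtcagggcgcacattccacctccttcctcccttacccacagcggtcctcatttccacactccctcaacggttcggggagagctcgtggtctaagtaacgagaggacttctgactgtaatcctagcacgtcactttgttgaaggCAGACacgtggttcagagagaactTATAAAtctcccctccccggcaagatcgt

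The TGFB1 window was GC-rich (76.8% G or C) with 6 GC boxes and no match to the other motifs. The TGFB2 window was 50.4% G or C, with a TATA box that began 29 bases before the start and CAGAC at 53 and 243 bases before it. That RefSeq start lies 899 bases from the start of the principal GENCODE transcript of TGFB2, and the distance was 11 bases for TGFB1 and 99 for TGFBR2. For TGFBR2 a stretch of 30 bases around each match is given, on the plus strand at chr3:30606453-30606482, chr3:30606391-30606420 and chr3:30606509-30606538.
TGFBR2 at the CCAAT box: ctaggaaacatgATTGGcagctacgagaga
TGFBR2 at the upstream GC box: agtggtgtgggaGGGCGGtgaggggcagct
TGFBR2 at the downstream GC box: gagaaggctctcGGGCGGagagaggtcctg

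The CCAAT box of TGFBR2 began 136 bases before the RefSeq start at position 30606601, and its GC boxes began 198 and 80 bases before it. The GENCODE gene starts upstream of that RefSeq start, at 30606502, so the downstream GC box lies inside the GENCODE gene. Over the 10 genes, taking for each the window nearest the start of its principal transcript, 7 held a GC box, 4 a CCAAT box, 3 CAGAC and 2 a TATA box. For TGFBR3, counted among those with a GC box, that window lies 24558 bases from the principal transcript's start, and for SMAD7 1087 bases. Of all 35116 RefSeq windows, a share of 42.6% held a GC box, 32% a CCAAT box, 38% CAGAC and 10.7% a TATA box. Both genes that fell (TGFBR1 and SMAD4) and SMAD2 held a CCAAT box too, as TGFBR2 did. A match is a description of the letters and shows no binding.

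Among the ligands, TGFB1 rose the most. TGFB1 (ENSG00000105329, GRCh38 chromosome 19, 41301587 to 41353911, minus strand), the ligand of wound repair and immune restraint, stood at 0.973, 0.518 and 0.785 FPKM in vehicle libraries A, B and C. In panobinostat libraries A, B and C it stood at 3.64, 3.89 and 3.8 FPKM. The arms did not overlap, and vehicle library B was the lowest of the 6, with 30 counts. The log2 fold change was 2.22 ± 0.18 (SE), or 4.67-fold, at an adjusted p of 7.15e-08 by edgeR.

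TGFB2 (ENSG00000092969, chromosome 1, 218346235 to 218444619), the ligand that depends most on betaglycan, had 1.9, 1.86 and 2.04 FPKM with vehicle and 4.57, 4.14 and 4.49 FPKM with panobinostat. Every panobinostat library was above every vehicle library. TGFB2 rose 2.11-fold, by 1.07 ± 0.10 on the log2 scale (edgeR adjusted p = 4.55e-07).

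TGFB3 (ENSG00000119699, chromosome 14, 75958099 to 75982991), the ligand best known from palate fusion, had 1.24, 1.29 and 1.27 FPKM with vehicle and 1.68, 1.71 and 1.45 FPKM with panobinostat. These arms did not overlap, but the change of 0.24 ± 0.14 on the log2 scale did not pass the test (edgeR adjusted p = 0.144). It did pass where TMM gave way to library size or to the upper quartile as the scale (log2 fold changes of 0.35 and 0.37, adjusted p = 0.0387 and 0.0271). Those scalings moved the median of all genes up by 0.11 and 0.14.

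Summed over the 3 genes, ligand transcripts stood at 4.11, 3.66 and 4.09 FPKM with vehicle and at 9.89, 9.74 and 9.75 FPKM with panobinostat. The TGFB1 share of that sum was 23.6%, 14.2% and 19.2% with vehicle and 36.8%, 39.9% and 39% with panobinostat, a mean of 19% ± 4.75 against 38.6% ± 1.62 (SD, n = 3). An exact two-sided permutation test over the libraries gave p = 0.1, the smallest p that 3 against 3 can reach. TGFB2 was the largest component in every library, at 42.6% to 50.7%, with the lengths behind the deposited FPKM. With principal transcript lengths TGFB3 stood above TGFB2 with vehicle (2.46 ± 0.0457 against 2 ± 0.0986). The TGFB3 share lay between 30.1% and 35.1% with vehicle and between 14.9% and 17.5% with panobinostat.

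**Figure D2:**
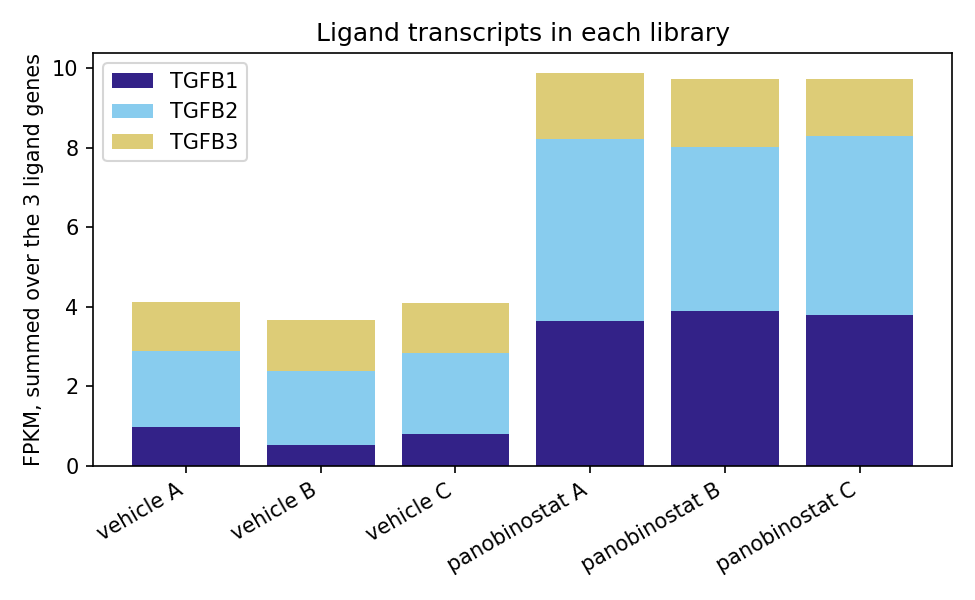
Stacked bars of TGFB1, TGFB2 and TGFB3 transcripts (FPKM) in each of the 6 libraries. The whole bar stood at 3.66 to 4.11 FPKM with vehicle and 9.74 to 9.89 FPKM with panobinostat, and the TGFB1 segment widened from a mean of 0.759 to 3.78 FPKM.

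The signalling receptors went in opposite directions. TGFBR2 (ENSG00000163513, chromosome 3, 30606502 to 30694142), the type II receptor that binds ligand first, had 10, 7 and 11 counts in vehicle libraries A, B and C. It had 65, 87 and 82 counts in panobinostat libraries A, B and C. In FPKM this was 0.149, 0.0832 and 0.129 against 1.03, 1.14 and 0.959, with no overlap. The rise of 3.01 ± 0.26 on the log2 scale, or 8.03-fold, passed (edgeR adjusted p = 1.09e-07) and stood 772nd among the 16084 genes ordered from the largest rise. TGFBR2 was tested only through its level in the panobinostat arm, as were 1754 of the genes ordered, so this p and rank are a description. Leaving out 1 library at a time gave 2.79 to 3.15.

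TGFBR1 (ENSG00000106799, chromosome 9, 99104038 to 99154192), the type I receptor and kinase of SMAD2 and SMAD3, was the most abundant of the 10 per length in both arms. It stood at 30, 36.5 and 35.9 FPKM with vehicle and at 26.9, 27.4 and 27.9 FPKM with panobinostat. Vehicle library A, the lowest of its arm, lay above all panobinostat libraries. TGFBR1 fell by 0.43 ± 0.08 on the log2 scale (edgeR adjusted p = 0.000345), and it passed under each of 16 alternatives (-0.53 to -0.29).

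TGFBR3 (ENSG00000069702, chromosome 1, 91680343 to 91906335), the betaglycan coreceptor, had 0.716, 0.668 and 0.635 FPKM with vehicle and 2.58, 1.91 and 1.98 FPKM with panobinostat. Panobinostat library A was the highest. The rise was 2.95-fold, or 1.56 ± 0.14 on the log2 scale (edgeR adjusted p = 1.79e-07).

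The FPKM ratio of TGFBR1 to TGFBR2 was 202, 439 and 278 with vehicle and 26.1, 24 and 29.1 with panobinostat. TGFBR2 had only 7 to 11 counts in each of those vehicle libraries. On the inverse scale, TGFBR2 to TGFBR1, the means were 0.00361 ± 0.00134 and 0.0381 ± 0.00364 (SD, n = 3), a 10.6-fold difference (exact permutation test, two-sided, p = 0.1, the smallest possible).

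Of the SMADs that TGFBR1 phosphorylates, SMAD3 rose and SMAD2 did not pass. SMAD3 (ENSG00000166949, chromosome 15, 67063763 to 67195195), which binds DNA directly, had 12, 20 and 25 counts with vehicle and 72, 82 and 72 with panobinostat. This was 0.0922, 0.123 and 0.152 FPKM against 0.589, 0.555 and 0.434 FPKM. All panobinostat values lay above all vehicle values. The rise was 3.88-fold, or 1.96 ± 0.24 on the log2 scale (edgeR adjusted p = 4.13e-06).

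SMAD2 (ENSG00000175387, chromosome 18, 47808957 to 47931146), whose main form binds DNA only through SMAD4, had 3390, 4709 and 4771 counts with vehicle and 4339, 4940 and 5276 with panobinostat. In FPKM it stood at 6.52, 7.24 and 7.25 against 8.89, 8.38 and 7.98, with no overlap. The change of 0.15 ± 0.07 on the log2 scale did not pass (edgeR adjusted p = 0.0867), which does not show that the arms were alike. It passed under 6 of 16 alternatives, among them library size alone and upper quartile scaling (0.27 and 0.29, adjusted p = 0.00535 and 0.00311).

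SMAD4 (ENSG00000141646, chromosome 18, 51028394 to 51085045), the partner shared with the BMP branch, stood at 5.43, 5.53 and 5.41 FPKM with vehicle and at 4.61, 4.33 and 4.65 FPKM with panobinostat. The vehicle libraries were close together and all above the panobinostat libraries. SMAD4 fell by 0.38 ± 0.07 on the log2 scale (edgeR adjusted p = 0.00032), and it passed in each of 16 alternatives (-0.41 to -0.22).

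SMAD7 (ENSG00000101665, chromosome 18, 48919853 to 48952052), the inhibitor that brings the ubiquitin ligases SMURF1 and SMURF2 to the receptor, stood at 9.08, 8.1 and 7.65 FPKM with vehicle. With panobinostat it stood at 14.8, 16.3 and 16.6 FPKM, again without overlap. The rise was 1.79-fold, or 0.84 ± 0.09 on the log2 scale (edgeR adjusted p = 1.02e-06).

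The ratio of SMAD2 to SMAD3 was 70.8, 59 and 47.8 with vehicle and 15.1, 15.1 and 18.4 with panobinostat. The ratio of SMAD7 to SMAD4 moved from 1.52 ± 0.136 to 3.52 ± 0.279 (SD, n = 3), a 2.32-fold difference (exact permutation test, two-sided, p = 0.1). Adjusted over the 3 ratios and shares tested, each p was 0.1. The fold of such a ratio does not depend on gene length, though its size does.

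**Figure D3:**
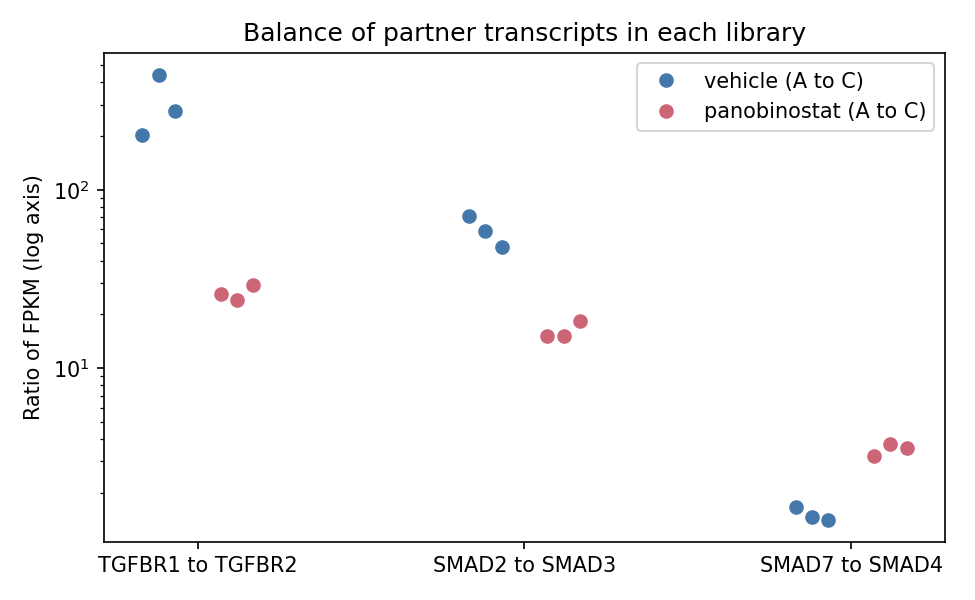
FPKM ratios (log axis) of TGFBR1 to TGFBR2, SMAD2 to SMAD3 and SMAD7 to SMAD4, 1 point per library. The first fell from a mean of 306 to 26.4 and the second from 59.2 to 16.2, while the third rose from 1.52 to 3.52.

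**Figure D4:**
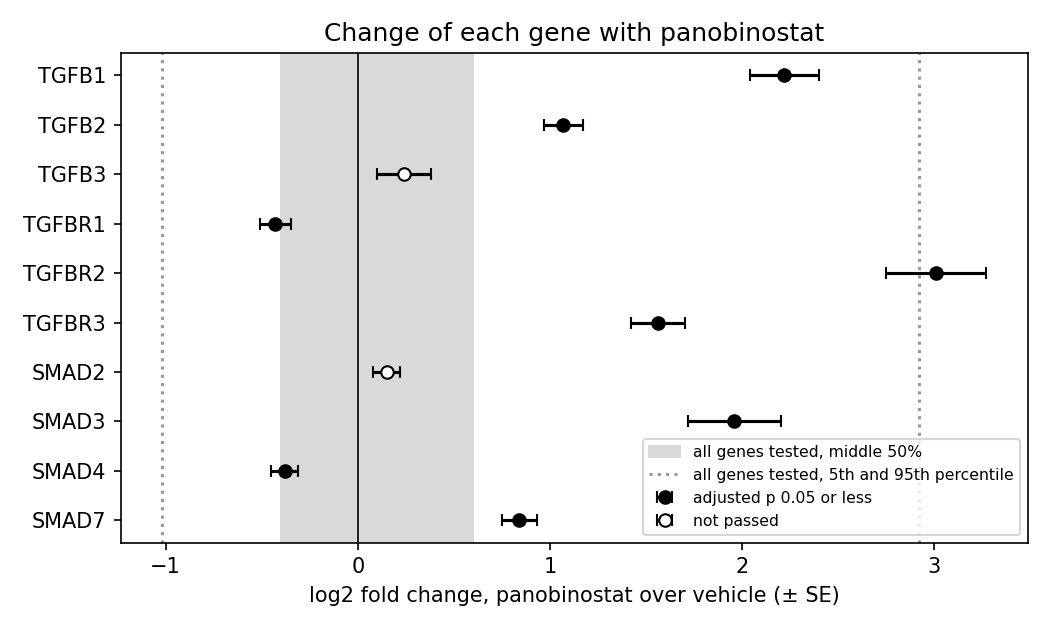
Log2 fold change (± SE) of each gene with panobinostat, filled where the adjusted p was 0.05 or less, over the 25th to 75th percentiles of all 16084 genes (-0.40 to 0.60, grey) and their 5th and 95th percentiles (-1.02 and 2.92, dotted). TGFBR2 lay past the upper dotted line, while TGFB3 and SMAD2, and SMAD4 among the genes that fell, lay inside the grey band.

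In order of FPKM with vehicle the genes ran TGFBR1, SMAD7, SMAD2, SMAD4, TGFB2, TGFB3, TGFB1, TGFBR3, SMAD3, TGFBR2. Neighbours did not overlap between libraries except TGFB1 with TGFBR3 and SMAD3 with TGFBR2. With panobinostat the order was TGFBR1, SMAD7, SMAD2, SMAD4, TGFB2, TGFB1, TGFBR3, TGFB3, TGFBR2, SMAD3, and only SMAD4 and TGFB2 overlapped. The order depends on the gene models, most for SMAD2: the length behind its FPKM was 36366 bases, and its shortest principal transcript in GENCODE release 29 has 12075. With that transcript, an alternative chosen after seeing the data, SMAD2 stood at 21.1 ± 1.25 with vehicle (SD, n = 3), behind TGFBR1 alone. With such transcripts for all 10 genes, SMAD4 (8.43) stood above SMAD7 (6.9) with vehicle, TGFB3 (2.46) above TGFB2 (2), and TGFBR3 was at 1.49. With panobinostat TGFBR3 (4.77) then stood 5th, above TGFB2 (4.57).

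TGFBR2 had the largest change of the 10, so the genes most like it were sought among 9930 genes of 10 CPM or more. Over the 6 libraries the highest Pearson correlations of log2(CPM + 1) with TGFBR2 were those of EHD3 (0.9995), LAMB2 (0.9994), CRAT (0.9992), KIF21B (0.9990) and DRAXIN (0.9990). Another 271 genes reached 0.99 as well. The points share 2 arms, so any gene with an even rise scores high.

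Around the ligands, 10 of 17 genes of latent storage and activation tested rose and 3 fell, where 33.7% of all genes rose and 31.5% fell. The median log2 fold change was 0.59 (0.01 over all genes). PLAT and PLAU, the plasminogen activators, rose by 2.46 ± 0.09 and 3.57 ± 0.30 on the log2 scale. LTBP1, which tethers latent ligand, rose from 12.3 ± 0.594 to 33.3 ± 1.63 CPM (SD, n = 3), and LTBP2 and FBN2 rose by 2.14 ± 0.40 and 1.77 ± 0.31. PLAU, LTBP2 and FBN2 were tested only through their level in the panobinostat arm. FURIN, the convertase that cleaves the precursor, and MMP2 did not pass at 0.25 ± 0.11 and -0.19 ± 0.08 (adjusted p = 0.0622 and 0.0526 by edgeR), and each passed under some alternatives.

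Of 12 receptor partners tested, 4 rose and 5 fell, near the shares over all genes (33.7% rose and 31.5% fell). The median was -0.14 (0.01 at the highest, over the alternatives run on counts, with limma on FPKM not among them). ENG (endoglin), a coreceptor of endothelial cells, rose by 4.17 ± 0.36 on the log2 scale from 10 counts over the vehicle arm to 194, and it was tested only through the panobinostat arm. The decoy receptor gene BAMBI rose 1.6-fold. TGFBRAP1 fell by 1.21 ± 0.09, ZFYVE9 (SARA, which presents SMADs to the receptor) fell by 0.84 ± 0.08, and PMEPA1 fell by 0.54 ± 0.10. VASN and MAP3K7 (TAK1) did not pass (-0.22 ± 0.20 and 0.15 ± 0.07). ENG marks endothelium, and the 3 endothelial markers with a row summed to 0.105 to 0.154 FPKM with vehicle and 0.554 to 0.564 FPKM with panobinostat. CDH5 and KDR, tested only through the panobinostat arm, went from 7 to 69 and from 12 to 75 counts over the arm. VWF, tested only through the vehicle arm, did not pass (33 counts in each arm). Their part in the rise of ENG was not tested. Rises from few counts were not particular to endothelial markers. The leukocyte markers PTPRC and CSF1R, tested only through the panobinostat arm, went from 5 to 45 and from 2 to 35 counts over the arm. LYZ, another leukocyte marker, fell from 72 to 21.

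Among 19 genes of negative regulation and turnover, 9 rose and 6 fell, where 33.7% of all genes rose and 31.5% fell. The list mixes inhibitors with turnover genes, deubiquitinases among them, that need not act alike. Its counts are therefore not counts of inhibitors. The median log2 fold change was 0.18 (0.01 over all genes). The SMAD corepressor gene SKIL (SnoN) rose from 166 ± 17.7 to 328 ± 18 CPM, and SNX25 rose 3.16-fold. The ligase gene SMURF1 fell by 0.68 ± 0.08 on the log2 scale, as did the deubiquitinase gene USP11 (by 0.72 ± 0.07) and TRIM33, which targets SMAD4 (by 0.66 ± 0.08). TGIF1 and USP15 did not pass (0.19 ± 0.12 and 0.10 ± 0.08). Without vehicle library A, or without panobinostat library A, 6 rose and 6 fell.

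Of 18 SMAD cofactors tested, 5 rose and 7 fell, near the 33.7% and 31.5% over all genes, and the median was -0.18. With upper quartile scaling 7 rose and 3 fell. FOXO1 and FOS, transcription factors that SMAD3 pairs with, rose by 3.81 ± 0.16 and 3.37 ± 0.22 on the log2 scale. KAT2B and RUNX3 rose 2.06-fold and 1.97-fold. The acetyltransferase gene CREBBP fell by 1.06 ± 0.12, and EP300 and ZEB2 did not pass (-0.28 ± 0.13 and -0.18 ± 0.11), though without panobinostat library A both did (-0.45 and -0.36, adjusted p = 0.000894 and 0.000695).

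In the activin and nodal branch, which also signals through SMAD2 and SMAD3, 5 of 12 genes tested rose and 2 fell. Over all genes 33.7% rose and 31.5% fell, with a median log2 fold change of 0.01. The median of the branch was 0.12. With a filter at a mean of 1 CPM 9 were tested, of which 3 rose and 1 fell. ACVR2B, a type II receptor, fell by 1.30 ± 0.09 on the log2 scale from 354 ± 31.8 to 144 ± 14.5 CPM, and its relative ACVR2A rose 1.67-fold. ACVR1C and GDF15 (a distant family member, not an activin or nodal ligand) rose 2.05-fold and 3.18-fold. GDF15, INHBA and INHBB, 3 of the 5 that rose, were tested only through the panobinostat arm. ACVR1B and FSTL3 did not pass (-0.16 ± 0.08 and 0.18 ± 0.14). Of the other SMADs, SMAD6 (the BMP branch inhibitor), SMAD5 and SMAD9 rose by 0.72 ± 0.09, 0.33 ± 0.07 and 0.26 ± 0.07, and SMAD1 fell by 0.69 ± 0.12.

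Of 33 SMAD target genes tested, 22 rose and 9 fell, where 33.7% of all genes rose and 31.5% fell. The median log2 fold change was 0.69 (0.01 over all genes). The list does not hold only genes that TGF-beta raises, so these counts are not counts of induced targets. CDC25A, which TGF-beta lowers, was among the falls (-1.13), but MYC, which it lowers in epithelia, was among the rises (0.98). ID1, raised by BMP signals, was among the rises too (0.97). COL1A1 and COL5A1, collagen chains, rose by 3.76 ± 0.17 and 2.88 ± 0.13 on the log2 scale, and the fibronectin gene FN1 rose 7.84-fold. TIMP1 went the other way and fell by 3.26 ± 0.16. The collagen genes did not all rise. COL3A1 and COL7A1 did (1.42 and 1.22), COL4A1 fell (-0.61), and COL1A2 was too low for testing (7 and 10 counts over the arms). ID2 and CDH2 did not pass (0.16 ± 0.07 and -0.14 ± 0.10). Of the 33 genes 6 were tested only through the panobinostat arm. COL1A1 and COL3A1 also mark fibroblasts, and the 9 fibroblast markers with a row summed to 62.1 to 65.3 FPKM with vehicle and 95.6 to 102 FPKM with panobinostat. LUM (lumican) alone went from 0.654 to 42.4 FPKM. Of the 8 tested 5 rose and 3 fell, no marker of the 9 was at 0 in the vehicle arm as a whole, and their part in these rises was not tested.

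**Figure D5:**
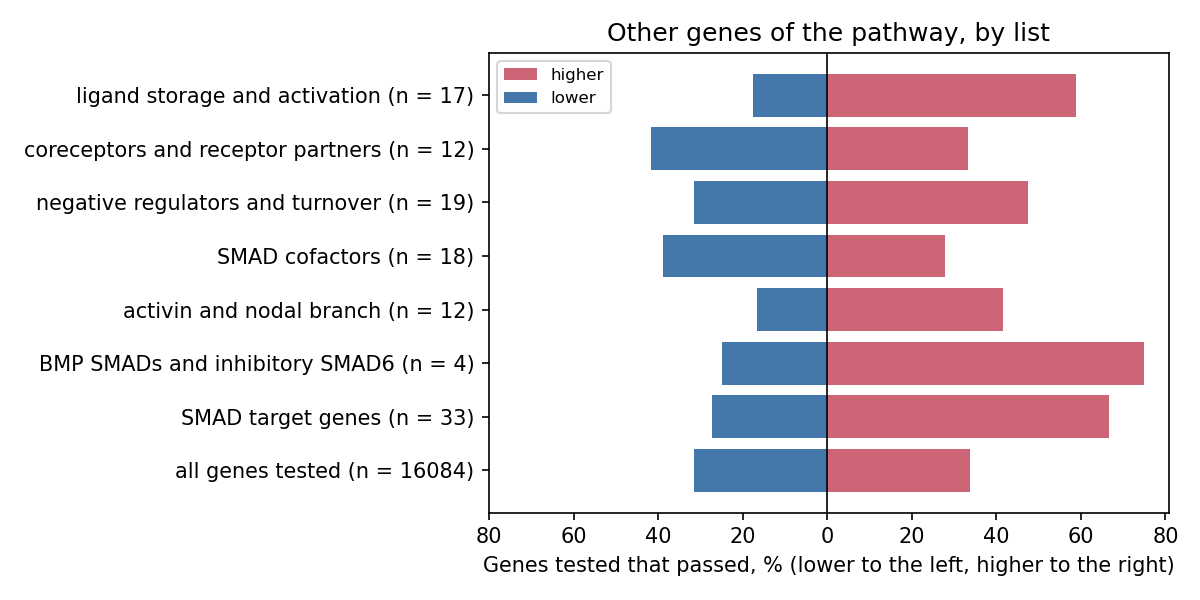
Share of genes tested (%) that passed as higher (right) or lower (left) with panobinostat in each list, above the same for all 16084 genes. In the list of SMAD target genes 22 of 33 rose and 9 fell, while 33.7% of all genes rose and 31.5% fell.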

How the data were processed

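The authors' deposited counts per gene came from featureCounts 1.5.0-p3, run with strand option 2 and the Ensembl release 84 annotation, per the file headers (version 1.5.1, with Novoalign 2.8, Subread and hg38, per the submitters' processing notes). The command names 9 alignment files, and 6 have columns analysed here. The deposited FPKM values are the authors' own. With each gene's length taken from its deepest library, all 53265 values of 100 counts or more in the other libraries lay within 1% of the scaled count, so both tables are 1 measurement.

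Symbols and GRCh38 coordinates came from a table of gene names and GENCODE release 29, which named 22459 of 22718 genes. Counts were filtered with filterByExpr (minimum count 10, total 15), scaled by TMM and tested with edgeR 4.0.16 in R 4.3.3, panobinostat against vehicle, with no further term. P-values were adjusted over 16084 genes. The SE is the log2 fold change over the square root of F. The steps were also tested on simulated counts. The members and lists were chosen with earlier results of these data known. From each list the text names the 5 genes at most that passed with a mean CPM of at least 1 and changed most, and at most 2 that did not pass. Further listed genes are named where they limit a reading. Alternatives were DESeq2 1.42.0, RLE, library size, upper quartile scaling, other filters, an adjusted p of 0.01, the letter as a block, each library left out, and limma 3.58.1 on log2(FPKM + 1) or log2(FPKM + 0.1). Within an arm every pair of libraries differed by more than sampling noise (lowest chi-square 2.87 per gene). The floor of 3 counts covers counting error alone. The values of 1 SMAD target gene are not reported here.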

Additional observations from a re-analysis of the deposited data

How the results depend on the processing

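TGFB1, TGFB2, TGFBR1, TGFBR3, SMAD4 and SMAD7 kept their direction and passed under each of 16 alternatives. TGFBR2 and SMAD3 did so under each of the 14 that tested them, since they fell under the filter of 1 FPKM. On log2(FPKM + 1) their changes shrank to 0.87 and 0.44, as the pseudocount exceeds or nears their levels. TGFB3 passed under 2 alternatives and SMAD2 under 6. With gene length left out (CPM in place of FPKM) the panobinostat means of the TGFB1 share, the TGFBR2 to TGFBR1 ratio and the SMAD7 to SMAD4 ratio were 28.5%, 0.0262 and 0.99, by construction. The exact permutation p was 0.1 there too. Upper quartile scaling raised the share of rises among all genes called from 51.7% to 63.2%, and library size alone to 61%. The labels do not say that a letter marks a pair of libraries. Deviations from the arm mean correlated between same-letter libraries at 0.101 (A), -0.0409 (B) and 0.24 (C) over 9930 genes. Vehicle libraries A and C each matched the panobinostat library of their own letter best, while vehicle library B matched panobinostat library C best. With the letter as a replicate block 5432 genes rose and 5109 fell, against 5416 and 5066 without it, and no call among the 10 genes changed. Depth limits TGFBR2 and SMAD3 most.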

Other observations

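Among well-known direct targets the directions were mixed. These genes were chosen after their values were seen. SKIL and SMAD7, feedback inhibitors, rose by 0.98 ± 0.08 and 0.84 ± 0.09 on the log2 scale, while PMEPA1, another, fell by 0.54 ± 0.10 and KLF10 by 0.60 ± 0.09. CDKN2B (p15), the cell cycle inhibitor gene that TGF-beta raises in epithelia, rose by 1.89 ± 0.20. CDC25A, a phosphatase gene that TGF-beta lowers, fell by 1.13 ± 0.08. MYC, also lowered by TGF-beta in epithelia, went the other way and rose by 0.98 ± 0.31, from 37 to 75 counts over the arm. ID1, a gene raised by BMP signals, rose from 96.7 to 205 FPKM. TGFBI and TAGLN were too low for testing, at 0.00597 and 0.0427 FPKM with vehicle and 0.0494 and 0.0629 FPKM with panobinostat.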
